A study of Equus caballus with 3 samples.

Results

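The genes described here are the collagen genes of equine mesenchymal stromal cells (MSCs), chosen by name alone as the rows of the deposited matrices called COL, a number, A and a number. This rule found 38 of 29927 genes, and all 38 had a row for each of the 3 tissue sources. *COL4A3BP* begins in the same way but codes for no collagen and was left out. Of the 38 genes, 15 had a mean of at least 5 counts per 1000000 UMIs (CPM, where unique molecular identifiers, UMIs, tag single captured transcripts) over the sources, 16 had some counts below that mean, and 7 had no count in any kept cell (*COL2A1*, *COL4A6*, *COL6A5*, *COL9A1*, *COL10A1*, *COL19A1* and *COL25A1*). A further 6 collagen genes of a RefSeq horse annotation (assembly TB-T2T), *COL4A3*, *COL5A1*, *COL7A1*, *COL11A2*, *COL22A1* and *COL23A1*, had no row under that name and were not analysed here. Rows named only by an Ensembl identifier could not be paired with symbols, so sums and shares of collagen genes cover the 38 named rows and may be incomplete.

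Cells were grown from fat (adipose tissue, AT), marrow (bone marrow, BM) and blood (peripheral blood, PB) of the same healthy, untreated Warmblood mare, 10 years old, and 1 droplet library was sequenced from each source after 2 passages. The titles of the samples give these sources, although the deposited source name calls every sample mononuclear cells of peripheral blood. With 1 library per source there was no replicate, no test between sources could be run, and a difference between sources cannot be told apart from a difference between libraries or cultures. All intervals below are 95% intervals of counting error only.

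Collagens are trimers of chains that carry repeats of glycine and are secreted into the extracellular matrix. Fibrillar collagens, mainly types I and III in connective tissue stroma, assemble into the banded fibrils that bear tension. Type IV collagen forms the sheet of basement membranes, type VI forms beaded microfilaments around cells, and type VIII, a short chain collagen, forms lattices under endothelium and elsewhere. The FACIT collagens, such as types XII and XIV, sit on the surface of fibrils and link them to other matrix. MSCs in culture are known for abundant collagen transcripts, above all of type I.

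The matrices held 11757 barcodes for AT, 6455 for BM and 6180 for PB, and 5403, 5580 and 5318 were kept, with 2500 to 15000 UMIs and at most 3% of them mitochondrial. Medians were 7291, 6874.5 and 7750 UMIs per kept cell. Libraries shared barcodes: 106 between AT and BM, 57 between BM and PB, and 5788 between AT and PB, of which 42, 38 and 37 were kept in both. Of the shared AT and PB barcodes, 5281 were kept in PB and removed in AT. Markers of the labelled cell type were present, with 2744, 2345 and 2668 CPM in AT, BM and PB for 5 stromal genes together. These genes did not share 1 order. *THY1* had 665, 531 and 90.5 CPM, with a UMI in 94.8%, 92.0% and 45.5% of cells. *B2M*, a subunit of MHC class I, had 1129, 1151 and 1781 CPM and made up most of the PB sum. *CD44* was lowest in BM and *ITGB1* highest there. In the same order, 7 haematopoietic genes together had 0.425, 0.472 and 1.83 CPM, with *PTPRC* at 0 in every source, and 4 endothelial genes had 0.0750, 0.0497 and 0.192 CPM, with *KDR* at 0. *DRA*, of MHC class II, supplied 1.35 CPM of the haematopoietic sum in PB, from 56 UMIs in 14 cells.

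Collagen genes together made up 1.67% of all UMIs in AT-derived MSCs, 0.946% in BM-derived MSCs and 1.70% in PB-derived MSCs. AT and PB were therefore within 1.02-fold of each other, whereas the BM level was 1.77-fold below AT and 1.79-fold below PB. The classes did not share this order. Fibrillar collagens were lowest in BM, basement membrane and short chain collagens were highest in BM, and beaded filament collagens were highest in PB. In AT 98.1% of collagen UMIs were fibrillar, against 91.1% in BM and 93.5% in PB. Each of the other 4 classes took a larger share of collagen UMIs in BM than in AT.

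**Figure D1:**
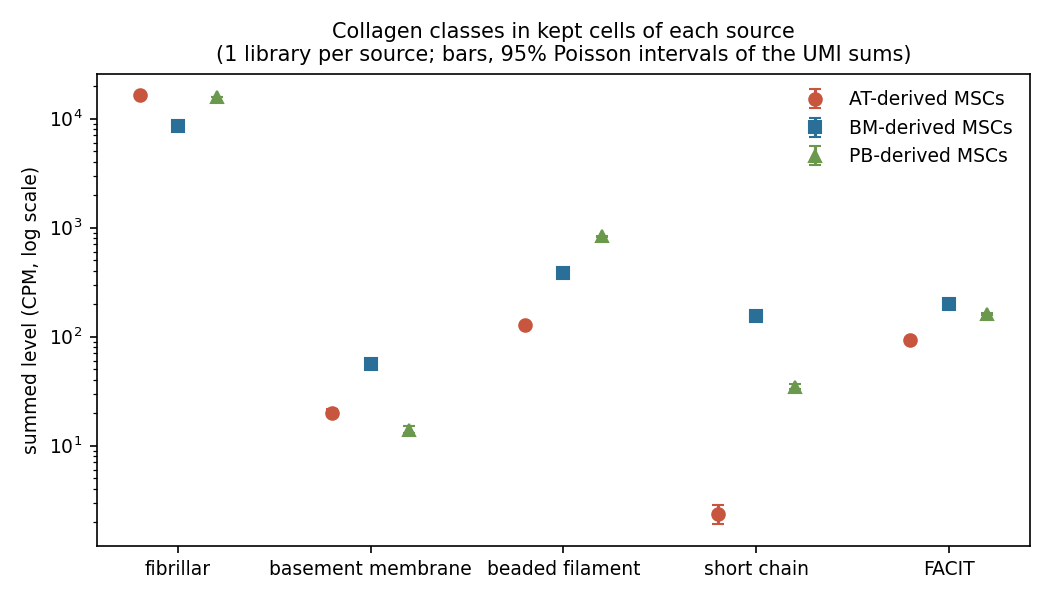
Summed level of each collagen class in CPM, on a log axis, in the kept cells of the AT, BM and PB libraries (1 library each, bars are 95% Poisson intervals and are mostly smaller than the markers). The short chain class spans the widest range, from 2.35 CPM in AT to 156 CPM in BM, and the fibrillar class the narrowest, from 8621 to 16397 CPM.

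Fibrillar collagens had 16397 CPM in AT-derived MSCs, 8621 CPM in BM-derived MSCs and 15861 CPM in PB-derived MSCs. The log2 ratio of BM to AT was -0.93 and that of PB to AT -0.048, so AT and PB stood close together and BM apart. Every kept cell of each source had at least 1 fibrillar UMI. *COL1A1* and *COL1A2*, the chains of type I collagen, and *COL3A1*, the chain of type III, together made up 94.9% of the collagen UMIs of AT, 85.9% of those of BM and 90.5% of those of PB.

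*COL1A1* had 6259 CPM in AT, 2700 CPM in BM and 6036 CPM in PB. It was 2.32-fold (2.30 to 2.33) higher in AT than in BM and 2.24-fold (2.22 to 2.25) higher in PB than in BM. *COL1A2* followed the same order of BM below the other sources, with 6857, 3879 and 7093 CPM in AT, BM and PB. Its distance was smaller than that of *COL1A1*, at 1.77-fold from AT and 1.83-fold from PB. The number of *COL1A2* UMIs per *COL1A1* UMI was accordingly higher in BM, 1.44 (1.43 to 1.45), than in AT, 1.10 (1.09 to 1.10), or PB, 1.18 (1.17 to 1.18). Type I collagen is usually made of 2 chains from *COL1A1* and 1 from *COL1A2*, but capture differs between 3′ ends, so such a ratio can be compared across sources and not read as a chain number.

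*COL3A1* had 2740 CPM in AT, 1553 CPM in BM and 2219 CPM in PB, again lowest in BM. *COL5A2*, a chain of the type V collagen found inside type I fibrils, varied least of the 15 genes, with 527 CPM in AT, 447 CPM in BM and 490 CPM in PB. Its level in AT was 1.18-fold (1.16 to 1.20) that in BM. Relative to *COL1A1* it was higher in BM, at 0.165 UMIs per *COL1A1* UMI against 0.0842 in AT and 0.0811 in PB. *COL3A1* and *COL5A2* lie on opposite strands of chromosome 18 in the deposited files (EquCab3.0) and are neighbours in TB-T2T.

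Both minor fibrillar genes with a mean above 5 CPM broke with this order. *COL11A1*, a chain of the type XI collagen of cartilage fibrils, had 10.2 CPM (9.19 to 11.2) in AT, 33.0 CPM (31.2 to 34.8) in BM and 1.37 CPM (1.04 to 1.77) in PB. It was thus 3.25-fold higher in BM than in AT and 24.1-fold (18.5 to 31.9) higher in BM than in PB. UMIs of *COL11A1* were found in 5.57% of AT cells, 16.6% of BM cells and 0.940% of PB cells, and in 2.17%, 7.01% and 0.226% after every cell had been thinned to 2500 UMIs. None of the kept cells were of a type that lacks collagen and could serve as a measure of free RNA, and the part of free RNA in these shares was not tested. The barcodes with fewer than 500 UMIs were too few to measure it, since the 0 *COL11A1* UMIs they held in BM and PB allow up to 84.7 and 59.2 CPM. *COL27A1*, a fibrillar collagen of cartilage and other matrices, was highest rather than lowest in PB, with 4.58 CPM in AT, 8.15 CPM in BM and 20.9 CPM in PB. *COL2A1*, the main collagen of cartilage, had no UMI in 5403, 5580 and 5318 cells, where 3 UMIs correspond to 0.0750, 0.0746 and 0.0721 CPM. The chondrocyte markers *SOX9*, *ACAN*, *COL2A1* and *MATN1* together had 1.63, 12.8 and 6.97 CPM in AT, BM and PB. Nearly all of this was *SOX9*, at 1.58, 12.7 and 5.89 CPM. *ACAN*, at 0.0500, 0.0249 and 1.01 CPM from 2, 1 and 42 UMIs, was instead highest in PB. *MATN1* had 0, 1 and 3 UMIs, too few to order the sources. The part of these markers in the collagen levels was not tested.

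Basement membrane collagens had 20.03 CPM (18.7 to 21.5) in AT, 55.8 CPM (53.6 to 58.2) in BM and 14.03 CPM (12.9 to 15.2) in PB. The BM level was 2.79-fold that of AT and 3.98-fold that of PB. Most of it was *COL4A1*, the common chain of type IV collagen, at 16.7 CPM in AT, 48.2 CPM in BM and 11.1 CPM in PB. Its partner *COL4A2* had 3.35, 7.60 and 2.86 CPM in AT, BM and PB, a mean below 5 CPM, with a UMI in 2.46%, 5.23% and 2.22% of cells. Both chains were therefore highest in BM, and the ratio of *COL4A2* to *COL4A1* UMIs was between 0.158 in BM and 0.256 in PB. The pair lies on opposite strands of chromosome 17 and consists of neighbours in TB-T2T. *COL4A4* and *COL4A5* had 1 UMI each over all sources and *COL4A6* none. A basement membrane UMI was found in 12.7% of AT cells, 27.9% of BM cells and 9.65% of PB cells, or 4.74%, 12.9% and 3.44% of cells at 2500 UMIs.

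Beaded filament collagens, the chains of type VI, had 128 CPM in AT, 384 CPM in BM and 831 CPM in PB, an order unlike that of every other class. The log2 ratio was 1.59 (1.54 to 1.64) for BM to AT and 2.70 (2.66 to 2.75) for PB to AT. At 2500 UMIs per cell, 26.7% of AT cells, 59.9% of BM cells and 86.2% of PB cells held a beaded filament UMI, against 57.3%, 88.5% and 98.8% without thinning. *COL6A3*, the longest chain and the one that carries the cleaved fragment endotrophin, made most of the difference. It had 29.7 CPM (28.1 to 31.5) in AT, 214 CPM (209 to 218) in BM and 506 CPM (499 to 513) in PB. PB was 17.0-fold (16.04 to 18.05) above AT and 2.37-fold above BM, and BM was 7.18-fold above AT. With all barcodes of at least 500 UMIs, which take in most AT barcodes shared with the PB library, the difference of log2(CPM + 1) fell from 4.04 to 2.78 for PB to AT and from 2.80 to 1.52 for BM to AT.

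*COL6A2* had 94.9 CPM in AT, 167 CPM in BM and 316 CPM in PB, a narrower range in the same order. The UMIs of *COL6A3* per *COL6A2* UMI were 0.313 (0.293 to 0.335) in AT, 1.28 (1.24 to 1.32) in BM and 1.60 (1.56 to 1.63) in PB. AT-derived MSCs thus differed from both other sources in the balance of these counts as well as in their level. With all barcodes of at least 500 UMIs, the *COL6A2* difference of log2(CPM + 1) fell from 0.81 to 0.53 for BM to AT. For PB to AT it fell from 1.73 to 1.45. These falls were smaller than those of *COL6A3*, so the difference in balance also narrowed. *COL6A1*, the third chain of the usual type VI trimer, was far lower, with 2.90 CPM in AT, 3.06 CPM in BM and 9.39 CPM in PB. It was counted 32.7 to 54.8 times less often than *COL6A2*. *COL6A1* and *COL6A2* lie on the same strand of chromosome 26 and are neighbours in TB-T2T, and the counting took in reads downstream of annotated genes. How reads between these genes were assigned was not tested. The levels of *COL6A1* and *COL6A2*, and the ratios formed with them, are therefore uncertain. *COL6A6* had 5 UMIs in AT cells alone.

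Short chain collagens had the largest differences between sources of the 5 classes. Their sum was 2.35 CPM (1.90 to 2.88) in AT, 156 CPM (152 to 160) in BM and 34.5 CPM (32.8 to 36.4) in PB, a log2 ratio of 6.05 (5.76 to 6.36) for BM to AT and 3.88 (3.58 to 4.19) for PB to AT. All of it came from the chains of type VIII, since *COL10A1*, the collagen of hypertrophic cartilage, had no UMI. *COL8A1* had 0.875 CPM in AT, 107 CPM in BM and 12.4 CPM in PB, and *COL8A2* had 1.48 CPM in AT, 49.1 CPM in BM and 22.2 CPM in PB. *COL8A1* was 122-fold (87.5 to 175) and *COL8A2* 33.3-fold (25.7 to 43.9) higher in BM than in AT. Against PB, the BM levels were 8.62-fold and 2.21-fold higher. With all barcodes of at least 500 UMIs, the difference of log2(CPM + 1) between BM and AT went from 5.84 to 5.04 for *COL8A1* and from 4.34 to 3.45 for *COL8A2*, and that between PB and AT from 2.83 to 2.13 and from 3.23 to 2.40.

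The balance of the type VIII chains differed as well, with 0.460 (0.436 to 0.485) *COL8A2* UMIs per *COL8A1* UMI in BM and 1.79 (1.61 to 2.00) in PB. In AT the ratio was 1.69 (1.09 to 2.64) from 59 and 35 UMIs. A UMI of *COL8A1* was found in 0.555% of AT cells, 47.5% of BM cells and 8.76% of PB cells, or 0.222%, 22.8% and 2.84% at 2500 UMIs. The AT barcodes below 2500 UMIs that the PB library did not hold had no *COL8A1* UMI, with an upper bound of 6.04 CPM, and 1 *COL8A2* UMI, or 1.64 CPM (0.0415 to 9.12). The levels of kept AT cells lay within these bounds, and the part of free RNA in them was not tested.

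FACIT collagens had 93.0 CPM in AT, 200 CPM in BM and 160 CPM in PB. *COL12A1*, a FACIT chain of tendon, ligament and muscle matrix, supplied nearly all of this, with 82.9 CPM in AT, 199 CPM in BM and 159 CPM in PB. It was 2.40-fold (2.30 to 2.50) higher in BM than in AT, 1.91-fold higher in PB than in AT, and 1.25-fold higher in BM than in PB. At 2500 UMIs, 17.5% of AT cells, 37.8% of BM cells and 31.1% of PB cells had a *COL12A1* UMI.

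*COL14A1*, a related FACIT chain on fibrils, was seen in AT alone. It had 305 UMIs in AT, or 7.63 CPM (6.80 to 8.53), in 4.78% of cells, and none in BM or PB. Against a floor of 3 UMIs over all cells of a source, it was at least 102-fold higher in AT than in BM and at least 106-fold higher than in PB. Its mean over sources was below 5 CPM, so it is outside the counts of genes given below.

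Among collagens outside the 5 classes, only the multiplexins, collagens whose cleaved ends include endostatin, had a mean above 5 CPM. *COL15A1* differed little, with 48.8 CPM in AT, 40.8 CPM in BM and 58.4 CPM in PB. *COL18A1* had 23.1 CPM (21.6 to 24.6) in AT, 4.97 CPM (4.31 to 5.71) in BM and 4.18 CPM (3.58 to 4.85) in PB, so that AT was 4.64-fold above BM and 5.52-fold above PB. The BM and PB levels of *COL18A1* overlapped within counting error. Of the 4 genes with a mean above 5 CPM that were highest in AT, *COL18A1* had the largest folds. Of the 16 genes with some UMIs and a lower mean, only *COL4A2* and *COL14A1* reached 1% of the cells of any source, and the highest level was that of *COL14A1* in AT. Transmembrane *COL13A1*, named after its values were seen, had no UMI in AT and 46 in BM and 50 in PB, or at least 15.2-fold and 16.0-fold more than the floor.

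**Figure D2:**
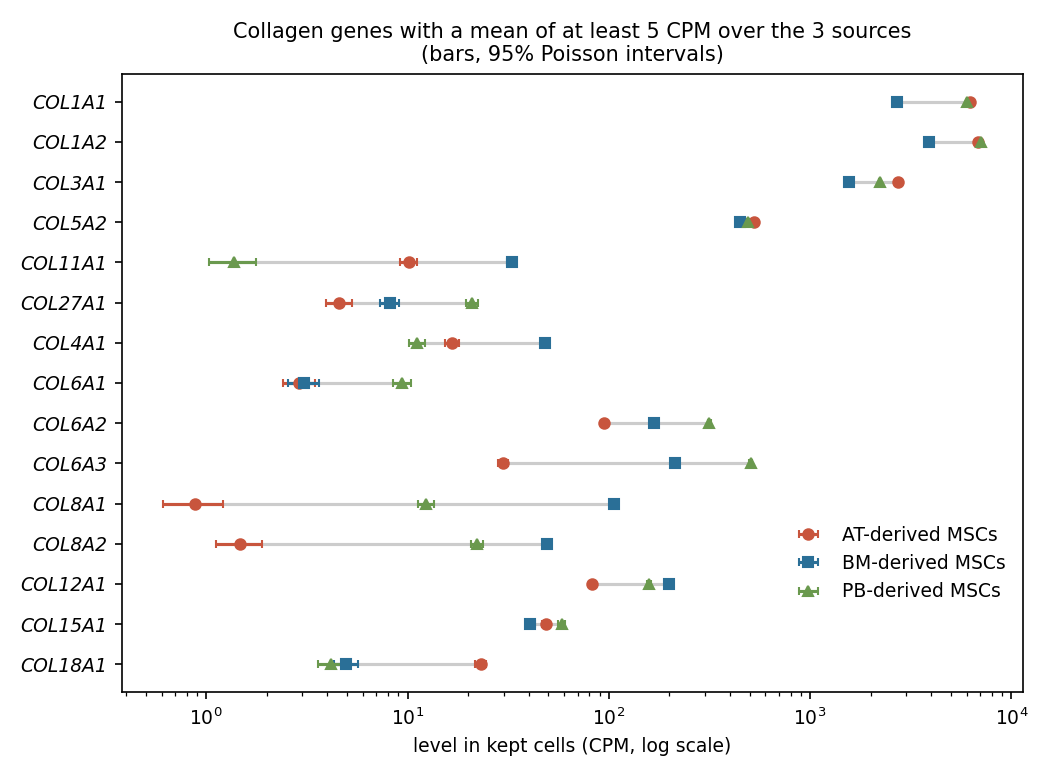
Level in CPM, on a log axis, of the 15 collagen genes with a mean of at least 5 CPM in AT (circles), BM (squares) and PB (triangles), with 95% Poisson intervals. *COL1A1*, *COL1A2* and *COL3A1* are lowest in BM, *COL6A3* has 29.7, 214 and 506 CPM in AT, BM and PB, and *COL8A1* has 0.875, 107 and 12.4 CPM.

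Over the 15 genes, the highest level was in AT for 4, in BM for 5 and in PB for 6, while 20.7%, 59.0% and 20.3% of all genes with the same mean were highest in AT, BM and PB. The lowest level was in AT for 7, in BM for 5 and in PB for 3, while 47.3%, 14.3% and 38.4% of all genes were lowest there. A gene was counted as different between sources where log2(CPM + 1) differed by at least 1, that is 2-fold, which is a rule of size and no test. BM was higher than AT for 6 of 15 collagen genes (*COL4A1*, *COL6A3*, *COL8A1*, *COL8A2*, *COL11A1* and *COL12A1*), where 7.9% of 8426 genes with the same mean were, and lower for 2 (*COL1A1* and *COL18A1*), where 2.03% were. PB was higher than AT for 6 (*COL6A1*, *COL6A2*, *COL6A3*, *COL8A1*, *COL8A2* and *COL27A1*), against 5.39% of all genes, and lower for 2 (*COL11A1* and *COL18A1*), against 3.55%. BM was higher than PB for 4 (*COL4A1*, *COL8A1*, *COL8A2* and *COL11A1*), against 5.44%, and lower for 4 (*COL1A1*, *COL6A1*, *COL6A3* and *COL27A1*), against 1.84%. These comparisons share libraries, so they are not independent of each other.

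The median difference of log2(CPM + 1) was 0.71 for the 15 collagen genes and 0.24 for all genes from AT to BM, 0.25 and 0.032 from AT to PB, and -0.51 and 0.20 from PB to BM. With trimmed mean of M values (TMM) factors, which centre most genes near 0 by construction, the median of all genes moved to -0.025, -0.012 and -0.020, and the collagen medians to 0.47, 0.21 and -0.74. On the TMM scale 5 collagen genes were higher and 4 lower in BM than in AT, where 5.26% and 3.56% of all genes were. In BM against PB, 3 were higher and 6 lower, where 3.62% and 2.93% of all genes were. *COL1A2* joined the lower genes in both, *COL3A1* those against AT and *COL6A2* those against PB, whereas *COL12A1* left the genes higher in BM than in AT and *COL8A2* those higher in BM than in PB. The difference from AT to BM changed sign over the alternatives for *COL6A1* and *COL15A1*, and no other difference of the 15 genes between any pair of sources did.

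Genes that modify, fold, cleave and cross-link collagen were taken from a list. Of 39 listed genes 37 had a row and 27 a mean of at least 5 CPM, and their median differences were -0.13 from AT to BM, 0.089 from AT to PB and -0.099 from PB to BM. BM was higher than AT for 4 of the 27 (7.9% of all genes) and lower for 1 (2.03%), PB was higher than AT for 3 (5.39%) and lower for 1 (3.55%), and BM was higher than PB for 0 (5.44%) and lower for 1 (1.84%). For hydroxylation, the most abundant gene *P4HB*, a subunit of prolyl hydroxylase, had 1031 CPM in AT, 673 CPM in BM and 957 CPM in PB. *PLOD2*, which hydroxylates lysines of the telopeptides that become cross-links, had 70.1, 147 and 114 CPM. It was the only 1 of 12 genes of this role past 2-fold, in BM over AT alone, where 7.9% of all genes were. Its difference there, 1.06, was just past the limit. For folding, none of 5 genes passed 2-fold on the CPM scale. *SERPINH1* came closest, at -0.90 from AT to BM and -0.84 from PB to BM. *SPARC*, a collagen-binding secreted protein and the most abundant of them, had 2676, 2286 and 2562 CPM in AT, BM and PB. *PLOD2* and *SERPINH1* lie near the limit, and the counts of this list with TMM factors are not given here.

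For propeptide cleavage, *PCOLCE*, which enhances removal of the C-propeptide, had 162, 122 and 223 CPM in AT, BM and PB. Its relative *PCOLCE2* had 26.7, 66.7 and 68.1 CPM, and *ADAMTS3*, an N-propeptidase, had 2.10, 10.9 and 5.93 CPM, both past 2-fold in BM and in PB against AT. For cross-linking, *LOX*, the lysyl oxidase that oxidises lysines of fibrils, had 442 CPM in AT, 351 CPM in BM and 188 CPM in PB, and *LOXL3*, of the same family, 6.48, 20.3 and 16.1 CPM. On the fibril surface *FN1*, fibronectin, had 1103 CPM in AT, 545 CPM in BM and 1276 CPM in PB, which is the order of *COL1A2*. *CTHRC1*, a secreted protein with a short collagen repeat, had 1909, 3721 and 1889 CPM and stayed just inside 2-fold.

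Within each source collagen was present in every kept cell, and it varied more than counting alone would give. With each cell thinned to 2500 UMIs, the median cell held 41 collagen UMIs in AT and 43 in PB, against 24 in BM. The 5th and 95th percentiles were 21 and 68 UMIs for AT, 9.95 and 43 for BM, and 21 and 67 for PB. The variance was 5.21, 4.16 and 4.52 times the mean in AT, BM and PB, where counting alone gives a ratio near 1. The fibrillar medians were 40, 21 and 40 UMIs, and 48.9% of AT cells and 48.3% of PB cells lay above 40 UMIs, the 95th percentile of BM. The sources therefore overlapped, with the median of BM below the equal medians of AT and PB. For beaded filament collagens 61.0% of PB cells and 26.5% of BM cells lay above 1 UMI, the 95th percentile of AT. A cell held UMIs of a median of 4 different collagen genes in AT, 5 in BM and 6 in PB.

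**Figure D3:**
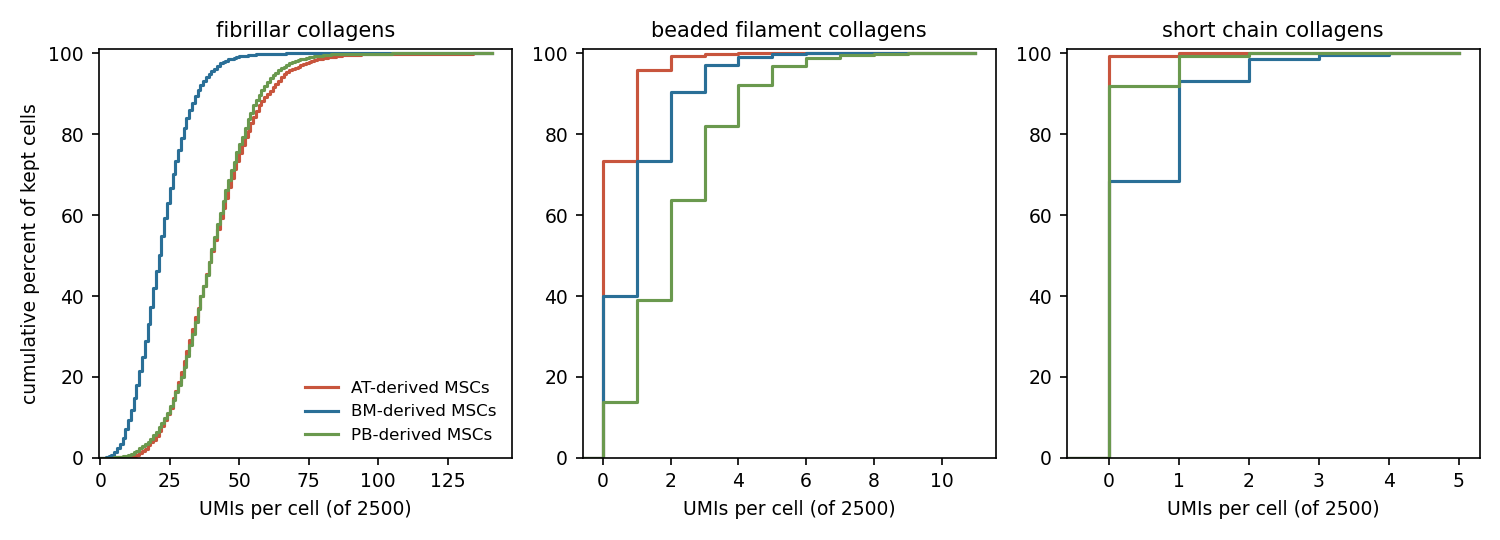
Cumulative percent of kept cells against the number of fibrillar, beaded filament and short chain UMIs per cell, with each cell thinned to 2500 UMIs. The fibrillar curve of BM lies to the left with a median of 21 UMIs against 40 in AT and PB, the beaded filament medians are 0 in AT, 1 in BM and 2 in PB, and 31.5% of BM cells but 0.592% of AT cells hold a short chain UMI.

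Across cells of a library, *COL1A1* and *COL1A2* had a Pearson correlation of 0.57 in AT, 0.45 in BM and 0.54 in PB, over 5403, 5580 and 5318 thinned cells that share a library and a fixed depth. For *COL1A1* and *COL3A1* it was 0.28 in AT, 0.054 in BM and 0.21 in PB. In the sparse counts of type VI and type VIII chains correlations lay between -0.0028 and 0.054, which at this depth is no finding. Of BM cells with a *COL11A1* UMI at 2500 UMIs, 18.2% (14.5 to 22.3) also had *COL4A1* and 32.2% (27.6 to 37.1) *COL8A1*, against 10.6% (9.81 to 11.5) and 22.1% (21.0 to 23.3) of the cells without one. In AT the shares were 9.40% (4.79 to 16.2) against 3.80% (3.30 to 4.35) for *COL4A1*, and 0% (0 to 3.10) against 0.227% for *COL8A1*. BM cluster 3, described below, was low in each of these genes, and its part in the BM shares was not tested.

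Collagen levels differed between the cell cycle phases called from expression scores. Fibrillar collagens had 17594 CPM in cells called G1, 14992 CPM in S and 14103 CPM in G2M in AT. They had 9876, 7034 and 5816 CPM in BM, and 17079, 14640 and 13157 CPM in PB. For the fibrillar sum G1 cells were thus highest and G2M cells lowest in every source. The beaded filament sum followed this in BM, with 435, 322 and 269 CPM in G1, S and G2M. It did so less steeply in PB, with 870, 779 and 762 CPM, and was nearly level in AT, at 126, 132 and 127 CPM. Cells called G1 made up 58.8% of AT, 67.5% of BM and 60.8% of PB. Among G1 cells alone the fibrillar log2 ratio of BM to AT was -0.83. The part of cell cycle phase in the differences between sources was not tested. Phase calls also read free RNA, and its part in them was not tested.

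Clusters were made in each source with the collagen genes left out of the variable genes, which gave 7 in AT, 8 in BM and 8 in PB. They are called by number and leading genes. The ratio of the highest to the lowest cluster level was taken for genes of at least 20 CPM in a source. It reached 2 for 11 of 12 collagen genes in BM, where 47.9% of all genes did, for 5 of 10 in PB, against 38.2%, and for 3 of 9 in AT, against 24.7%. The median ratio of the collagen genes was 3.26 in BM, 2.07 in PB and 1.86 in AT, beside 1.96, 1.82 and 1.60 for all genes. Without the cluster that held the most of their lowest levels (5 of 9 in AT, 11 of 12 in BM and 5 of 10 in PB), a comparison added after seeing the data, 5 of 12 reached 2 in BM (without cluster 3, against 35.2% of all genes), 2 of 10 in PB (without cluster 5, against 22.9%) and 2 of 9 in AT (without cluster 6, against 15.4%).

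The widest ranges were in BM. *COL11A1* had 66.0 CPM in cluster 4 and 1.62 CPM in cluster 3, a ratio of 40.7. *COL8A1* had 204 CPM in cluster 7 and 9.72 CPM in cluster 3, a ratio of 20.9, and *COL4A1* had 81.8 CPM in cluster 2 and 5.83 CPM in cluster 3, a ratio of 14.02. In the same cluster 3, *COL12A1*, *COL8A2*, *COL6A2*, *COL6A3* and *COL3A1* had their lowest levels too, with ratios of 4.07, 3.90, 3.27, 3.26 and 2.79. Without cluster 3 the ratio of *COL11A1* was 6.94, that of *COL8A1* 2.22 and that of *COL4A1* 2.59. Both *COL27A1*, with 15.9 CPM against 6.75 CPM in all other BM cells, and *COL18A1*, with 9.72 CPM against 4.11 CPM, were instead higher in cluster 3. Cluster 3 held 653 BM cells led by *CALCA*, *PDLIM3*, *EMB*, *ATP2B1* and *ACTG2*, of which 90.4% were called S or G2M. Its fibrillar sum was 4955 CPM against 9285 CPM in all other BM cells, its short chain sum 28.9 CPM against 179 CPM, and its basement membrane sum 6.97 CPM against 64.7 CPM. Its beaded filament sum was 158 CPM against 425 CPM. How far cluster 3 carried the BM levels by phase was not tested. Cluster 4, with 652 cells led by *TOP2A* and *CENPF* and 90.5% called S or G2M, instead had the highest *COL11A1*, a basement membrane sum of 70.7 CPM and 7237 CPM of fibrillar collagens. The part of cell cycle phase in the levels of clusters 3 and 4 was not tested, and the split of S from G2M cells within them is not given here.

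In PB the widest range was that of *COL3A1*, with 3344 CPM in cluster 7, 143 cells led by *MGP*, *NSG1* and *NDUFA4L2*, and 853 CPM in cluster 5, 384 cells of which 94.0% were called S or G2M. The ratio was 3.92. In AT it was that of *COL12A1*, with 135 CPM in cluster 0 and 50.3 CPM in cluster 5, a ratio of 2.68. Cluster 0 of AT held 1443 cells led by the smooth muscle genes *ACTA2*, *DES* and *ACTG2*. Over a list of 5 smooth muscle and pericyte genes, the summed levels were 1037, 935 and 649 CPM in AT, BM and PB. *DES*, at 204, 5.04 and 0.288 CPM, set AT above BM in this sum, whereas *ACTA2*, at 721, 763 and 613 CPM, and *CNN1*, at 106, 162 and 33.1 CPM, were highest in BM. *MYH11*, at 5.78, 4.03 and 1.03 CPM, was highest in AT. *RGS5*, at 0.475, 0.522 and 0.745 CPM, had intervals that overlapped between sources. The part of these genes in the *COL12A1* levels was not tested. The fibrillar sum of AT ran from 11071 CPM in cluster 6, where 100% of cells were called S or G2M, to 20557 CPM in cluster 4, led by *SCARA5* and *SVEP1*.

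**Figure D4:**
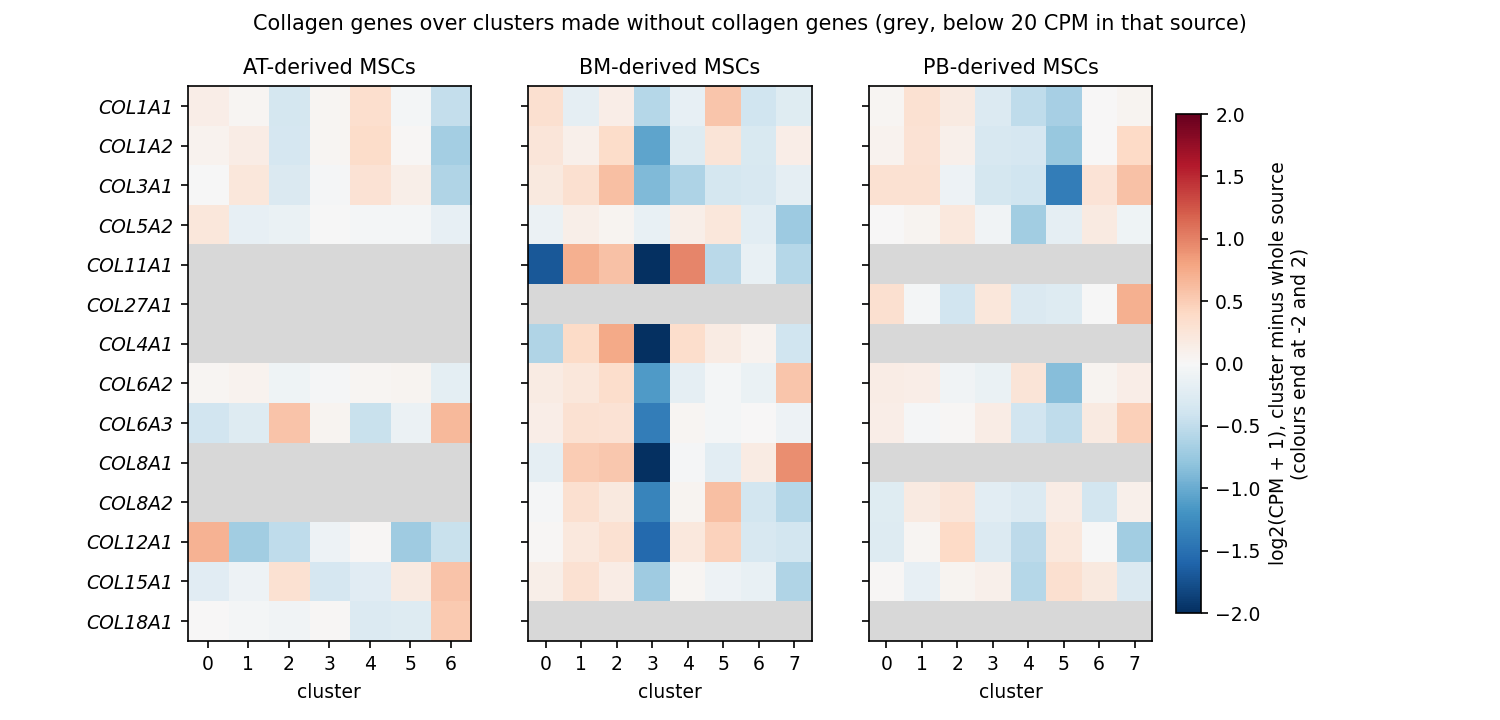
Difference of log2(CPM + 1) between each cluster and its whole source, for 14 collagen genes over the clusters of AT, BM and PB, made without collagen genes (red higher, blue lower, grey below 20 CPM in that source). Cluster 3 of BM is lower for 12 of 12 genes shown there, against 40.3% of 4823 genes of at least 20 CPM, by more than 2 on this scale for *COL4A1*, *COL8A1* and *COL11A1*.

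Other marker lists also differed between the sources. Of 5 osteoblast genes 4 had a row, and their sum was 3.90 CPM in AT, 156 CPM in BM and 369 CPM in PB. *COL27A1*, *COL6A2* and *COL6A3* shared this order, whereas the AT and BM levels of *COL6A1* were within counting error of each other. *ALPL*, at 2.88, 96.0 and 326 CPM, carried most of this sum, whereas *IBSP* had no UMI in AT, 32.3 CPM in BM and 0.673 CPM in PB. The sum of 4 adipocyte genes was 2.10, 3.70 and 0.120 CPM. In it *FABP4*, at 0.0250, 2.71 and 0 CPM, set BM above AT, whereas *LPL*, at 1.80, 0.820 and 0 CPM, was highest in AT. *ADIPOQ* had 8, 6 and 0 UMIs and *PLIN1* 3, 1 and 5, too few to order the sources. The part of these marker lists in the collagen levels was not tested.

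AT barcodes that were also in the PB library bear on several of these genes. Of 6155 AT barcodes below 2500 UMIs, 5711 were also in the PB library. In these, *COL6A3* had 478 CPM, *COL6A2* 294 CPM, *COL8A1* 13.0 CPM, *COL8A2* 23.2 CPM and *COL27A1* 19.7 CPM, close to the 506, 316, 12.4, 22.2 and 20.9 CPM of kept PB cells. In the 444 removed AT barcodes that the PB library did not hold, *COL6A3* had 37.7 CPM (23.9 to 56.5), *COL6A2* 83.5 CPM (62.2 to 110) and *COL8A1* no UMI. These levels were those of kept AT cells within counting error. *COL18A1*, high in AT, had 5.69 CPM in the AT barcodes shared with PB and 26.2 CPM (15.0 to 42.5) in those that were not. Leaving out the 74 kept AT cells whose barcode was also in the PB library moved *COL6A3* in AT from 29.7 to 28.1 CPM, *COL8A1* from 0.875 to 0.860 CPM and the collagen total from 16712 to 16723 CPM.

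**Figure D5:**
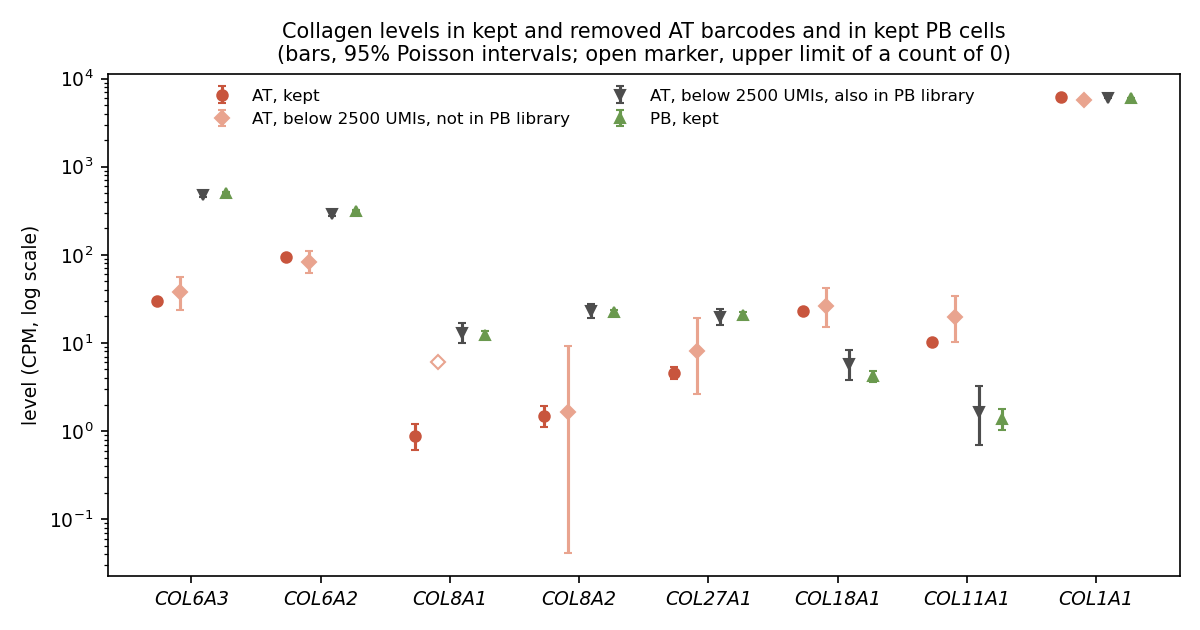
Level in CPM, on a log axis, of 8 collagen genes in kept AT cells, in AT barcodes below 2500 UMIs that are absent from or present in the PB library, and in kept PB cells, with 95% Poisson intervals (the open marker is the upper limit of a count of 0). Removed AT barcodes present in the PB library lie near the PB level for *COL6A3* (478 and 506 CPM) and *COL18A1* (5.69 and 4.18 CPM), and those absent from it near the AT level. For *COL6A3* the intervals, 459 to 498 and 499 to 513 CPM, do not overlap.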

How the data were processed

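Libraries were made with a 3′ droplet kit (version 2 chemistry). The submitters' notes name Cell Ranger and EquCab3.0, and per the methods the End Sequence Analysis Toolkit (ESAT) counted UMIs, including reads just downstream of genes, and skipped exons that overlap on opposite strands. The authors deposited unnormalized whole UMI counts per gene and barcode.

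Limits of 2500 and 15000 UMIs and of 3% mitochondrial UMIs were applied to barcodes. The UMIs left, 39980656 (AT), 40239295 (BM) and 41622445 (PB), were summed and scaled to CPM. Exact Poisson intervals were given for sums, exact conditional intervals for ratios and Clopper-Pearson intervals for shares (SciPy 1.17.1). They cover counting error only. Genes were compared on log2(CPM + 1), with a minimum mean of 5 CPM. Clusters used Seurat 5.3.0 and sctransform 0.4.2 (3000 variable genes, resolution 0.6). TMM factors came from edgeR 4.0.16, and no test was run. Doublets were not removed, except for the 5% highest Scrublet scores (Scanpy 1.11.5) in an alternative. The computation of differences of log2(CPM + 1) was run on simulated counts, and that of ratios with exact conditional intervals was not.

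Members followed the rule of names alone, but that rule, the gene lists and the alternatives were chosen with earlier results of these data known. Genes named are collagens with a mean of at least 5 CPM, others found in at least 1% of cells of a source, biosynthesis genes past 2-fold with the most abundant of each role, and the 10 collagens with the widest range over clusters (at least 20 CPM). Chromosomes and strands are those of the matrices. RefSeq TB-T2T, another build, gave names and neighbours only.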

Additional observations from a re-analysis of the deposited data

Results flagged for a closer look

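Barcodes with fewer than 500 UMIs were not used in the comparisons, and some collagen genes stood higher there than in kept cells of the same library. The AT library had 969 such barcodes with 335197 UMIs, and 87.1% of them were also in the PB library. In these AT barcodes *COL6A3* had 546 CPM from 183 UMIs (29.7 CPM in kept cells), *COL6A2* 280 CPM from 94 UMIs (94.9 CPM), *COL8A2* 32.8 CPM from 11 UMIs (1.48 CPM), *COL27A1* 23.9 CPM from 8 UMIs (4.58 CPM) and *COL8A1* 14.9 CPM from 5 UMIs (0.875 CPM). All of these genes were higher in kept PB cells than in kept AT cells.

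In the PB library, *COL6A1* had 209 CPM from 13 UMIs in 12 of 203 barcodes with fewer than 500 UMIs, against 9.39 CPM in kept cells. The cause of these levels was not tested.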

How the results depend on the processing

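No class ratio changed sign. Log2 ratios moved past their counting bounds as follows. With cells thinned to 2500 UMIs, fibrillar BM to AT was -0.89 and PB to AT -0.032, and beaded filament 1.65 and 2.75. With all barcodes of at least 500 UMIs, fibrillar BM to AT was -0.95, beaded filament BM to AT 0.99 and PB to AT 2.12, short chain 4.73 and 2.65, and FACIT BM to AT 1.01. Without AT barcodes also in the PB library, an alternative chosen after seeing the data, the fibrillar ratios were -0.96 and -0.058. With TMM factors, fibrillar was -1.21 and -0.093, basement membrane BM to AT 1.20, beaded filament 1.31 and 2.66, and FACIT BM to AT 0.83. In G1 cells, fibrillar was -0.83 and -0.043, basement membrane BM to AT 1.67, beaded filament 1.79 and 2.79, short chain BM to AT 6.47, and FACIT 1.19 and 0.72. The other 34 of 60 class ratios stayed within their bounds. Collagen genes lower in BM than in AT numbered 4 with TMM factors, where 3.56% of all genes were lower. They numbered 1 with a pseudocount of 25 CPM, where 0.676% of all genes were. That pseudocount also left 2 higher in PB than in AT, where 1.28% of all genes were, and 0 lower, where 0.843% were. It left 2 lower in BM than in PB, where 0.427% of all genes were. It shrinks differences of low genes by construction. The other 43 of 48 counts stayed within 1.5 times, as did the spread over clusters with collagen genes among the variable genes or at a resolution of 0.4. Another alternative, also chosen after seeing the data, left out the cluster that held the most of the collagen genes' lowest levels. Then 5 rather than 11 collagen genes spanned 2-fold between clusters of BM, where 35.2% rather than 47.9% of all genes did. In PB 2 rather than 5 did, where 22.9% rather than 38.2% of all genes did. Shares of cells fell with thinning for every class, the fibrillar by 1 cell of BM at most. No left-out replicate and no paired fit was possible, with 1 library per source. Differences of genes near 1 CPM are limited by depth.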
